A study of Danio rerio with 116 samples.

Results

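The distal end of zebrafish chromosome 4 was described from CG calls at positions from 71000001 on, with the ribosomal DNA (rDNA) stretch from 76313463 to 76330850 left out. A CG call is the methylated or unmethylated state of 1 CG cytosine in 1 bisulfite read. The region ran to 76624474, the highest position with a call, and covered 5.61 Mb in 563 windows of 10 kb. Of these windows, 562 had bases outside the stretch and 542 held at least 1 call. It held 18214 of the 3648141 calls of the series, from 4575 reads at 16544 CG positions. The bounds were positions and used no value of methylation, but the stretch that was left out had been placed earlier where calls of EGFP +ve libraries were densest.

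All fish carried the transgene vasa:EGFP, in which the promoter of vasa, a gene of germ cells, drives EGFP. Low coverage whole genome bisulfite libraries were made from 59 samples of sorted EGFP +ve cells and from 57 samples of EGFP -ve cells (control), at 1, 2, 4 and 7 days post-fertilisation (dpf), then at 11, 14, 21, 25 and 28 dpf, and then in each sex at 35, 40, 45, 50 and 70 dpf. Each of the 38 groups had 3 libraries, other than EGFP +ve cells at 28 dpf with 5. Libraries of 1 to 28 dpf pooled 10 fish whose sex is not in the labels. Those from 35 dpf came from 1 fish, called a presumptive female or male up to 50 dpf. Whole fish were dissociated until 14 dpf and the dissected gonadal region afterwards, so control cells are mixed tissues whose make-up changes with age. Where cells of a library came from several cell types, their shares and their methylation cannot be told apart.

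Ribosomal DNA encodes the RNA core of ribosomes, and growing fish oocytes can multiply it to supply the egg. The stretch that was left out belongs to such an rDNA copy, and the end of chromosome 4 that holds it is known as the sex-linked part of the genome in natural zebrafish strains. The long arm of this chromosome is also known for its heterochromatin, its repeats and its low content of single-copy genes. In zebrafish, as in other vertebrates, most CG cytosines outside promoters carry 5-methylcytosine. The comparisons asked whether the flanks of the stretch share its behaviour: whether they hold more calls, or lose methylation, in germ cells, at particular ages or in 1 sex.

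No genome or annotation on the coordinates of the calls was used, so genes, repeats and sequence of the windows are not given, and the sex-linked locus itself was not placed on these positions.

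The end of chromosome 4 was well methylated in both kinds of cell. Methylation, the percentage of methylated calls of a library in the region, was 86.3% ± 6.92 (SD, n = 59) in EGFP +ve cells, with a range of 60.6% to 98.3%. Control cells had 82.8% ± 5.87 (SD, n = 57), from 67.6% to 93.2%. The values of both kinds of cell overlapped over most of their range. A library had between 19 and 820 calls in the region, with a median of 111.5, and the 95% Wilson interval of its methylation reached a median of 6.2 percentage points to either side. Calls of 1 read are not independent, so these intervals cover counting error only and are too narrow.

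The region was more methylated than the remainder of the genome in most libraries. EGFP +ve libraries had a mean of 79.5% ± 3.25 (SD, n = 59) on chromosomes 1 to 25 outside the region and the stretch, and the region exceeded this by 6.83 percentage points ± 0.984 (SE). It was higher in 53 of 59 libraries (sign-flip permutation test, two-sided, p = 1e-05, the smallest that 100000 permutations can give). Control libraries had 76.8% ± 1.95 (SD, n = 57) outside the region, and the region exceeded it by 5.97 points ± 0.742 (SE), in 48 of 57 libraries (sign-flip permutation test, p = 1e-05). Both comparisons were added after the data were seen.

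Call density was also above the genome's. Relative call density is the number of calls per base in the region over that of all calls on chromosomes 1 to 25 of the same library, with the rDNA stretch left out of both, so that 1 is the average of the genome. EGFP +ve cells had a density of 1.30 ± 0.366 (SD, n = 59), from 0.462 to 2.74, and was over 1 in 49 libraries. Control cells had 1.27 ± 0.325 (SD, n = 57), from 0.704 to 2.06, and was over 1 in 46 libraries. Over all libraries the region held 0.531% of these calls in 0.418% of the length. This density counts calls and not reads. A read of the region held 3.98 calls on average, against 3.32 on the other chromosomes. Most of the excess of calls thus lay in calls per read, and the excess of reads per base was small. Of its 4575 reads, 11 (0.240%) had the same call positions as another read of their library. No read had calls both inside and outside the stretch. The nearest calls outside it lay 266 bp before and 1337 bp after it, farther than a read reaches, so no other count was possible.

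**Figure D1:**
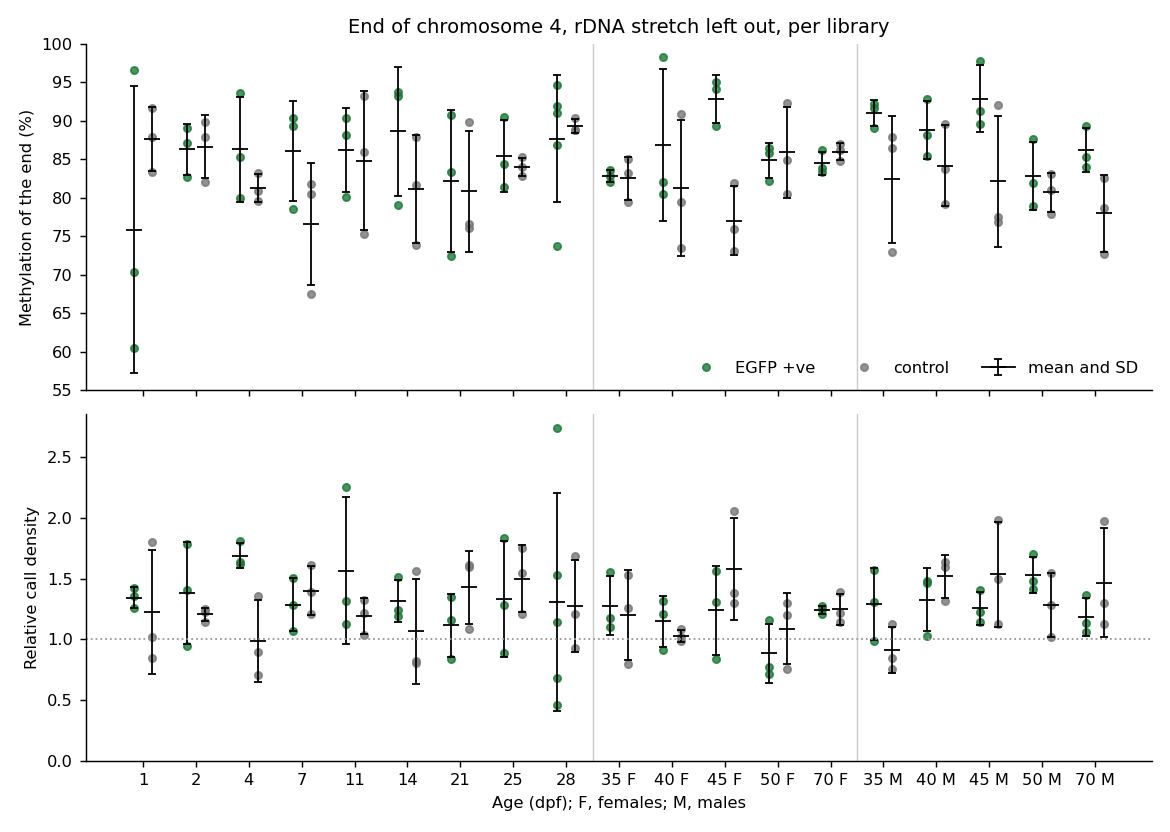
Methylation (top, %) and relative call density (bottom, 1 is the genome average, dotted) of the end of chromosome 4 in each of the 116 libraries, by age in days post-fertilisation and, from 35 dpf, by sex. Green points are EGFP +ve libraries, grey points are control libraries, and bars are the mean and SD of a group; EGFP +ve and control points overlap in density at most ages, and the widest spread of density is that of EGFP +ve cells at 28 dpf, from 0.462 to 2.74.

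Compared with the adjoining part of the long arm, from 27 to 71 Mb, the end held more calls per base. The difference of log2 density was 0.91 ± 0.064 (SE) in EGFP +ve libraries and was positive in 56 of 59 (sign-flip permutation test, two-sided, p = 1e-05, adjusted p = 0.000115 over 23 comparisons). It was 0.89 ± 0.069 (SE) in control libraries and was positive in 57 of 57 (sign-flip permutation test, p = 1e-05, adjusted p = 0.000115). These are 1.88-fold and 1.86-fold differences. The relative density of the pooled calls was 1.27 at the end, 0.675 from 27 to 71 Mb and 0.997 from 0 to 27 Mb.

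In methylation the end and the adjoining arm were closer. In EGFP +ve libraries the end was at 86.3% ± 6.92 and the arm at 87.1% ± 3.65 (SD, n = 59), a difference of -0.850 points ± 1.03 (SE; sign-flip permutation test, p = 0.422, adjusted p = 0.590). In control libraries the end was at 82.8% ± 5.87 and the arm at 85.9% ± 2.84 (SD, n = 57), and the end was lower by a difference of -3.15 points ± 0.846 (SE; p = 0.00056, adjusted p = 0.00429, sign-flip permutation test). When methylation was averaged over reads rather than calls, this difference was -0.870 points (permutation test, p = 0.344). A window of the arm from 61790001 to 61800000 held 5857 calls at 11 positions, 7.71% of the calls of the arm, with 93.8% methylation. Without it the control difference was -2.63 points (permutation test, p = 0.00299).

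Reads of the region carried many CG sites. A read held 3.98 calls on average, against 3.87 from 27 to 71 Mb, 3.23 from 0 to 27 Mb and 3.32 on the other chromosomes. Of the reads of the region, 65.9% were fully methylated and 7.74% held no methylated call, while on the other chromosomes the second share was 12.7%. Among reads with at least 4 calls in the region, 57.2% of 956 were fully methylated in EGFP +ve cells and 55.5% of 1137 in control cells, and reads with both states made up 38.6% and 39.1%.

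Ends of the same length were then taken from all 25 chromosomes. That of chromosome 4 ranked 1 of 25 in methylation, with 84.3% of all pooled calls, followed by chromosome 13 with 81.8%. It also ranked 1 in calls per read, with 3.981, but chromosome 2 was close at 3.976. In control cells it ranked 2 in calls per read, with 3.94 against 4.06 for chromosome 2. In density the end of chromosome 4 ranked 8, with 1.27. Its density was therefore within the range of other chromosome ends, and its methylation was above that range. These are pooled values with no test.

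Methylation and density differed along the end, with a similar profile in both kinds of cell. In pieces of 1 Mb, methylation of all pooled calls was 85.3% from 71 Mb, 83.9% from 72 Mb, 78.8% from 73 Mb, 86.0% from 74 Mb, 87.2% from 75 Mb and 84.1% in the last piece from 76 Mb. The piece from 73 Mb was the lowest in both kinds of cell, at 80.5% in EGFP +ve and 77.1% in control cells. Density of all pooled calls was 1.30, 1.27, 1.19, 0.891, 1.47 and 1.64 in the same order of pieces.

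At a finer scale, 56 bins of 100 kb counted from the edges of the stretch were compared. Of these, 36 were over the genome average in density in both kinds of cell and 10 were under it in both, and the densities of EGFP +ve and control cells had r = 0.823 across bins, which share the same genome positions. A trough lay 2.4 to 1.6 Mb before the stretch, from 73913463 to 74713462. Its density was 0.581 in EGFP +ve and 0.485 in control cells, although a bin inside it was at 1.10 in control cells. It held 10 of the 21 windows without a call, a count that includes the window wholly inside the stretch. Methylation in the trough, 84.2% and 84.4%, was like that of the whole end. A crest lay 1.5 to 1.0 Mb before the stretch, from 74813463 to 75313462, with a density of 2.23 and 2.02 and a methylation of 90.8% and 87.3%. The bounds of trough and crest were set after the densities were seen, so their densities are a description with no test.

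**Figure D2:**
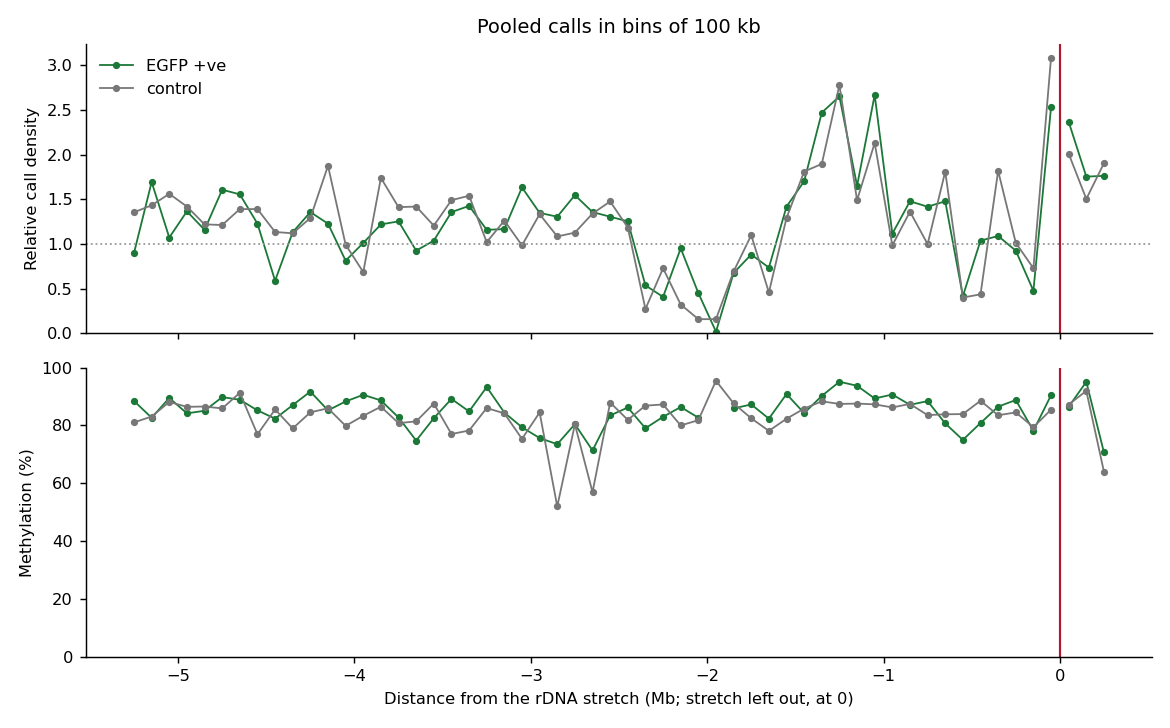
Relative call density (top, 1 is the genome average, dotted) and methylation (bottom, %) of pooled calls in bins of 100 kb against the distance from the rDNA stretch in Mb (red line), for EGFP +ve (green) and control (grey) libraries. Density falls to 0.581 and 0.485 in the trough 2.4 to 1.6 Mb before the stretch and rises to 2.23 and 2.02 in the crest 1.5 to 1.0 Mb before it; the first, shorter bin is not drawn, nor is the methylation of bins with under 10 calls.

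Single windows of 10 kb with a call held a median of 28 calls, with quartiles of 16.25 and 45. Among the 365 windows with at least 20 calls, the median methylation was 87.9%, with quartiles of 80.4% and 92.6%, and 11 were fully methylated. Of these windows, 135 lay over 80% and up to 90% and 83 over 90% and up to 95%, whereas 15 of these 365 windows were at or under 50%. The 5 windows with most calls held 4.80% of the calls of the region. They were all highly methylated, from 88.8% in the window from 76230001 to 76240000, which had 259 calls, to 94.1% in that from 75100001 to 75110000. Of these 5 windows, 3 lay within 100 kb of the stretch.

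The 15 least methylated windows clustered. The piece from 73 Mb held 7 of them among its 61 windows with at least 20 calls, and each other piece held between 1 and 3. The window from 73680001 to 73690000 had no methylated call among 12 calls in EGFP +ve and 29 in control cells, from 6 reads of 6 libraries, and a count of 0 among these 41 calls allows a methylation of up to 7.32%. That from 72660001 to 72670000 had none among 20 calls from 3 reads, which allows up to 15%. Both limits cover counting error only and treat calls as independent. Calls of 1 read are not, so with 6 and 3 reads both limits are far too low. In the window from 73500001 to 73510000, 51 control calls were methylated at 11.8% and 19 EGFP +ve calls at 100%, from 9 reads in all. In 8 of the 15 windows both kinds of cell were at or under 50%. The windows rested on 3 to 13 libraries each, and 53 of their 120 reads had no methylated call, so that a single read moves them.

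From 2.9 to 2.6 Mb before the stretch, from 73413463 to 73713462, 6 of these windows lay side by side with methylated ones. Over this span 498 control calls of 42 libraries were methylated at 62.9%, and 487 EGFP +ve calls of 42 libraries at 75.4%. The control values were close to each other in the groups, at 63.3% from 1 to 28 dpf, 63.8% in females and 61.4% in males. The EGFP +ve values were 71.9%, 72.7% and 81.3% in the same order. The span was chosen after its values were seen and no test was made.

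Windows chosen in 1 set of libraries were then read in the others. The 5 windows with the lowest methylation in control libraries of 1 to 28 dpf, among windows with at least 20 calls there, were at 4.17% to 71.4% in those libraries. In all other libraries the window from 73500001 was at 52.2% of 46 calls and that from 72790001 at 15.4% of 13 calls, whereas those from 75670001, 72960001 and 71730001 were at 93.5%, 82.1% and 94.7%. Of the 46 calls of the window from 73500001, 27 came from 2 control libraries of later ages, at 18.5%, and 19 from EGFP +ve libraries, at 100%. Its low value thus returned in these control libraries. The window from 72790001, at 68% where chosen, and that from 72960001 had no later control calls. Those from 75670001, 72960001 and 71730001, higher elsewhere, were at 65% to 71.4% where chosen. The other libraries mix later ages with EGFP +ve cells, so these values cannot separate age from kind of cell.

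Between the kinds of cell, 244 windows had at least 10 calls in each. EGFP +ve cells were higher in 138, lower in 96 and equal in 10, with a median difference of 1.79 points and quartiles of -5.84 and 10.7. The methylation of these windows had r = 0.438 between the kinds of cell, over windows with few calls. Only 6 windows had at least 30 calls from at least 10 libraries in each kind of cell, and among these the median difference was 0.733 points, with 4 windows higher in EGFP +ve cells and 2 lower. The largest rise was 8.48 points in the window from 75100001, and the largest fall was -3.56 points in that from 73860001. Set against all control libraries, the density of EGFP +ve libraries of 28 dpf and of females of 35 to 50 dpf had its highest ratio among these 6 windows, 1.49, in that from 76280001. The median of the 6 ratios was 0.971, and the lowest was 0.0806, in the window from 75100001.

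Directly beside the rDNA stretch, the few calls of both kinds of cell were mostly methylated. The nearest calls lay 266 bp before it, at 76313197, and 1337 bp after it, at 76332187. In the first 5 kb before the stretch, 14 EGFP +ve calls from 4 reads were all methylated, and 93.3% of 15 control calls from 6 reads were. In the first 5 kb after it, 22 EGFP +ve calls from 4 reads and 20 control calls from 3 reads were all methylated. The 17 EGFP +ve libraries that held most calls of the stretch gave 3 of these calls, from 1 read, before it. They gave 10 calls, from 2 reads, after it. This is too few to tell the methylation directly beside the stretch in these libraries. The window from 76330001 to 76340000, which holds the end of the stretch, had 63 calls outside it from 14 libraries, all of them methylated.

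The stretch itself differed from the chromosome end around it in the EGFP +ve libraries that hold most of its calls. Its pooled methylation was 2.32% in EGFP +ve and 76.3% in control cells. The 17 EGFP +ve libraries of 28 dpf and of females of 35 to 50 dpf held 111200 of the 120728 EGFP +ve calls. Replicate A of females of 40 dpf alone held 49157. Averaged over libraries with at least 10 calls, the stretch was at 34.2% ± 33.4 (SD, n = 56) in EGFP +ve cells, from 0% to 100%. In control cells this mean was 77.9% ± 13.6 (SD, n = 50). At 28 dpf the stretch was at 2.13% ± 1.15 and the chromosome end around it at 87.7% ± 8.25 (SD, n = 5) in EGFP +ve cells, and the end was higher in 5 of 5 libraries. In EGFP +ve cells of females of 35 to 50 dpf the stretch was at 9.09% ± 22 and the end at 86.9% ± 5.98 (SD, n = 12), and the end was higher in 12 of 12. The mean of the stretch rested on replicate C of 50 dpf, with 77.4% of 31 calls, and was 2.88% ± 4.79 (SD, n = 11) without it. In males of these ages it was higher in 10 of 12, by a mean of 53.2 points ± 10.9 (SE). The stretch had been placed from its calls in EGFP +ve libraries, so these values are a description with no test. In the 50 control libraries with at least 10 calls in the stretch, the end exceeded it by 5.10 points ± 2.12 (SE), in 31 of 50 libraries (permutation test, p = 0.0202), a comparison added after the data were seen.

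**Figure D3:**
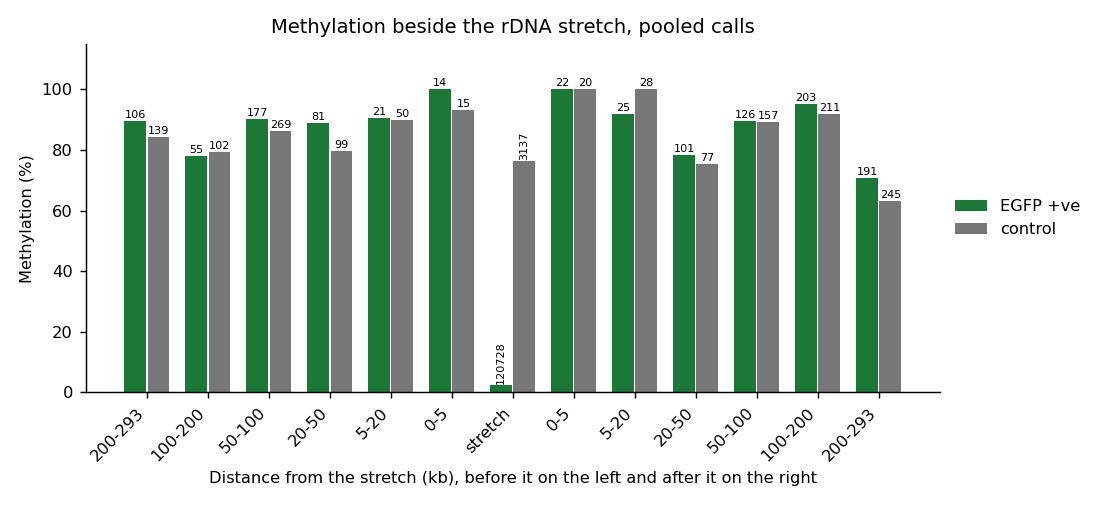
Methylation (%) of pooled calls by distance from the rDNA stretch in kb, before it on the left and after it on the right, with the stretch itself in the middle, for EGFP +ve (green) and control (grey) libraries. Numbers over the bars are calls. All bars outside the stretch lie between 63.3% and 100%, while the stretch is at 2.32% in EGFP +ve and 76.3% in control cells. The EGFP +ve value rests mostly on 17 libraries, and the mean over libraries is 34.2% ± 33.4 (SD, n = 56).

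Methylation was lower near the tip. Beyond 200 kb after the stretch, 191 EGFP +ve calls were methylated at 70.7% and 245 control calls at 63.3%, against 95.1% and 91.9% from 100 to 200 kb. Windows at or under 50% were those from 76540001, with 40.7% of 81 calls from 12 libraries, and from 76580001, with 48.8% of 80 calls from 8 libraries.

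Within 100 kb of the stretch the density was 2.50 over all libraries, against 1.22 in the rest of the end, and methylation was 88.5% of 567 calls in EGFP +ve and 86.2% of 715 calls in control cells. This higher density was seen in both kinds of cell, with 2.45 and 2.55. At 28 dpf EGFP +ve libraries had 2.35 ± 2.99 (SD, n = 5) and control libraries 1.36 ± 1.90 (SD, n = 3) within 100 kb (two-sided exact permutation test, p = 0.643). In females of 35 to 50 dpf EGFP +ve libraries had 1.79 ± 1.66 and control libraries 3.13 ± 1.77 (SD, n = 12 each), a difference of -1.34 (exact permutation test, p = 0.0708, adjusted p = 0.368 over 7 comparisons). In males of these ages the values were 2.73 ± 1.93 and 1.81 ± 1.13 (SD, n = 12 each; exact permutation test, p = 0.179). These flanks had 330 reads in all, 13 EGFP +ve and 6 control libraries had no call there, and the comparisons were added after the data were seen.

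Over the whole end, density did not differ detectably between kinds of cell. On the log2 scale EGFP +ve minus control was 0.15 ± 0.10 (SE) over 1 to 25 dpf (two-sided permutation test with p = 0.186, adjusted p = 0.534, n = 24 each). At 28 dpf the 5 EGFP +ve libraries had densities of 1.15, 2.74, 1.53, 0.462 and 0.681 and the 3 control libraries 1.21, 0.931 and 1.69, so that the groups overlapped and both the highest and the lowest library were EGFP +ve. EGFP +ve minus control was -0.19 ± 0.51 (SE; exact permutation test, p = 0.75). It was -0.095 ± 0.15 (SE) in females of 35 to 50 dpf (exact permutation test, p = 0.519, n = 12 each), 0.078 ± 0.11 (SE) in males (exact permutation test, p = 0.547, n = 12 each) and -0.14 ± 0.14 (SE) at 70 dpf (exact permutation test, p = 0.42, n = 6 each).

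The sexes were compared next. In EGFP +ve cells of 35 to 50 dpf, the density was 1.14 ± 0.282 in females and 1.35 ± 0.219 in males (SD, n = 12 each). Females were lower at 4 of 4 ages, by a log2 difference of -0.27 ± 0.12 (SE), which did not pass the test (exact permutation test, two-sided, p = 0.0623, adjusted p = 0.239). Mean log2 density in females and males was 0.342 and 0.352 at 35 dpf, and 0.196 and 0.396 at 40 dpf. It was 0.275 and 0.330 at 45 dpf, and -0.205 and 0.616 at 50 dpf. The sexes were thus nearly equal at 35 and 45 dpf, and 50 dpf carried most of the difference. At 50 dpf the 3 females had 0.776, 0.716 and 1.16 and the 3 males 1.42, 1.49 and 1.70, with no overlap; this age was singled out after its values were seen, and at the other ages the libraries of the sexes overlapped. The value moved with the total used: with the rDNA calls kept in the total it was -0.54 (exact permutation test, p = 0.00415). That total holds the stretch, with a mean of 17.5% of calls in these females and 3.09% in these males. A larger share of the stretch in the total lowers the density of the end. Compared within sequencing runs, with these calls left out, females minus males was -0.27 (permutation test, p = 0.143). In control cells of 35 to 70 dpf, females minus males was -0.12 ± 0.12 (SE; permutation test, p = 0.357, n = 15 each).

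Across the 12 EGFP +ve libraries of females of 35 to 50 dpf, the log2 density of the end was set against the log2 share of rDNA calls. Pearson's r was -0.119 (permutation test, p = 0.719) and Spearman's rho was 0.105 (permutation test, p = 0.750). Without the 2 libraries farthest from the median share, r was -0.136 over 10 libraries. A relation was not detectable at this number of libraries.

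Methylation of the end in males of 35 to 50 dpf was higher in EGFP +ve than in control cells. EGFP +ve libraries ranged from 79.0% to 97.8% with a median of 89.3%, and control libraries from 73% to 92% with a median of 82.1%. The groups overlapped, but the mean of EGFP +ve cells was higher at 4 of 4 ages. EGFP +ve exceeded control cells by 6.50 percentage points ± 2.19 (SE, n = 12 each; exact permutation test, two-sided, p = 0.00596, adjusted p = 0.0343). Within sequencing runs it was 7.47 points (permutation test, p = 0.0123). The remainder of the genome differed by 3.64 points in the same libraries, and the difference left after subtracting it was 2.87 points (exact permutation test, p = 0.212). Averaged over reads rather than calls, EGFP +ve minus control was 5.42 points (exact permutation test, p = 0.0596), and without replicate C of every group it was 4.59 points (exact permutation test, p = 0.0540), so that each of these 3 alternatives ended the call.

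In females of 35 to 50 dpf, EGFP +ve libraries ranged from 80.5% to 98.3% with a median of 84.8%, and control libraries from 73.2% to 92.3% with a median of 81.3%. EGFP +ve minus control was 5.19 points ± 2.30 (SE, n = 12 each), positive at 3 of 4 ages, and did not pass the test (exact permutation test, p = 0.0613, adjusted p = 0.239). By age, EGFP +ve minus control was 0.348 points at 35 dpf, 5.62 at 40 dpf, 15.8 at 45 dpf and -1.03 at 50 dpf, so that 45 dpf carried most of the difference, and without that age it was 1.64 points (exact permutation test, p = 0.565). The remainder of the genome differed by 3.99 points in the same libraries, and subtracting it left 1.2 points (exact permutation test, p = 0.668). Within sequencing runs the value was 4.47 points (permutation test, p = 0.152). It passed at 6.09 points without replicate B of every group (exact permutation test, p = 0.00309) and at 7.26 points without 50 dpf (exact permutation test, p = 0.0350). The female difference also passed when methylation was averaged over reads rather than calls, the alternative that ended the call in males. The effects in females and males differed by -1.32 points (permutation test of the difference, p = 0.678), so they were not shown to be unequal.

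At the other ages, the differences in methylation did not pass the test. EGFP +ve minus control was 1.75 points ± 2.22 (SE, n = 24 each) over the ages to 25 dpf (permutation test, p = 0.436), -1.66 ± 3.72 (SE) at 28 dpf (exact permutation test, p = 0.875, n = 5 and 3) and 3.35 ± 1.73 (SE, n = 6 each) at 70 dpf (exact permutation test, p = 0.215). Averaging over reads gave 4.05 points over the ages to 25 dpf (permutation test, p = 0.0269), and relative to the remainder of the genome the value was 4.21 points at 70 dpf (exact permutation test, p = 0.0400). At 28 dpf the EGFP +ve libraries were at 86.9%, 91.0%, 92.0%, 94.7% and 73.8% and the control libraries at 90.3%, 88.9% and 88.8%. The sexes differed by -2.0 points ± 1.87 (SE, n = 12 each) in EGFP +ve cells of 35 to 50 dpf (exact permutation test, p = 0.311) and by 1.06 ± 2.14 (SE, n = 15 each) in control cells of 35 to 70 dpf (permutation test, p = 0.628), females minus males.

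Age was compared within fish of 1 to 28 dpf. In EGFP +ve cells the end was at 82.8% ± 11.3 (SD, n = 9) at 1 to 4 dpf and 86.2% ± 6.68 (SD, n = 20) at 7 to 28 dpf, a difference of -3.38 points (permutation test, p = 0.326) that was -7.80 points within sequencing runs (permutation test, p = 0.380). The spread at the first ages came from 1 dpf, when the 3 EGFP +ve libraries were at 60.6% of 71 calls, 96.6% of 59 calls and 70.4% of 71 calls, with 95% Wilson intervals of 48.9% to 71.1%, 88.5% to 99.1% and 59.0% to 79.8%. These 3 libraries came from 3 sequencing runs. The remainder of the genome was 5.43 points higher at 1 to 4 dpf than at 7 to 28 dpf in EGFP +ve cells, and relative to it the end was lower at 1 to 4 dpf by a difference of -8.82 points (permutation test, p = 0.0140). This call rested on the library at 60.6%, which had 15 reads: without it the relative difference was -5.84 points (permutation test, p = 0.0596), and the difference of the end itself was -0.598 points (permutation test, p = 0.844). In control cells the end was at 85.2% ± 4.26 (SD, n = 9) and 82.8% ± 6.83 (SD, n = 18) (permutation test, p = 0.352). Differences in log2 density between these ages were 0.23 ± 0.16 (SE) in EGFP +ve (permutation test, p = 0.263) and -0.22 ± 0.16 (SE) in control cells (permutation test, p = 0.161).

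Finally, the 6 pieces of 1 Mb of the end were read from limma fits over all windows of 1 Mb of chromosomes 1 to 25. Calls were windows with a Benjamini-Hochberg adjusted p under 0.05, and none of the 6 pieces was called in any of the 6 comparisons. For density, 0 of 1253 windows (0%) were called between EGFP +ve and control cells over all ages, between the sexes in EGFP +ve cells and between the sexes in control cells, and 62, 72 and 38 of the 1253 windows had an unadjusted p under 0.05 in limma, with 0 of the 6 pieces among them. For methylation, 5 of 1331 windows (0.376%) were called between EGFP +ve and control cells, and 0 (0%) in both comparisons of the sexes, while 186, 76 and 89 windows had an unadjusted p under 0.05 in these comparisons. The pieces of the end were 0, 1 and 1 of these windows.

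In 1 comparison the pieces were all on 1 side, as were most windows of the genome. All 6 were higher in methylation in EGFP +ve than in control cells, by 0.551 to 4.55 points with a median of 3.78, while 77.3% of all windows were higher with a median of 2.50. Counted from the highest, the pieces ranked between 401 and 960 of 1331 windows. Between the sexes in EGFP +ve cells, 2 of 6 pieces were higher in females, with a median of -4.67 points and a range from -12.0 in the piece from 73 Mb to 11.5 in the adjoining piece from 72 Mb (limma, adjusted p = 0.820 and 0.787). In control cells, 4 of 6 were higher in females, with a median of 1.32 points, and the last piece was at -14.0 points (limma, adjusted p = 0.536). Over all libraries of those groups the pooled methylation of the last piece was 75.8% in control cells of females and 86.3% in control cells of males.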

How the data were processed

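Post-bisulfite adaptor tagging was used for the libraries. The authors trimmed reads with Trim Galore, mapped them with Bismark 0.19.0 and deposited 1 line per CG call, with read, state, chromosome and position, as raw call counts without normalization. The submitters' processing notes list GRCz10 and the study's methods GRCz11. The position that the study gives for the stretch in GRCz11 lies beyond 76624474, the last call of chromosome 4 here. The positions are thus not those of GRCz11, and they are given as deposited, unconverted. Chromosome lengths were taken as the highest position with a call. The 6 libraries titled 11 dpf have another day in their label; the title was used. The depth was 8735 to 163870 calls a library (median 22682.5).

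Counting used Python 3.11.15 with numpy 2.4.6 and pandas 2.3.3. Methylation needed at least 10 calls in a library, which all 116 had, and log2 density had 0.5 calls added. Kinds of cell were permuted within age and sex, sexes within age and ages within kind of cell (exact where all arrangements were enumerated, otherwise 100000 permutations), and libraries were sign-flipped for comparisons within a library, with Benjamini-Hochberg adjustment over 23 comparisons. Windows of 1 Mb were fitted in limma 3.58.1 (R 4.3.3) with 1 mean per group. Density there was the log2 of a window's reads, 0.5 added, relative to all reads of the library, for windows with a mean of at least 5 reads. Methylation was weighted by calls, for windows with a call in at least 60 libraries and in every group. The scripts were tested on simulated data. The p-values measure the spread between these libraries. Windows named are the 1 Mb pieces, the windows beside the stretch, the 5 with most calls, the 5 lowest in control libraries of 1 to 28 dpf, those that differed most between kinds of cell, and, named after their values were seen, those at or under 50%. The members, windows and lists were chosen with earlier results of these data known. Read names gave 8 sequencing runs. Alternatives changed the total, the unit counted, the windows kept and the libraries used.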

Additional observations from a re-analysis of the deposited data

How the results depend on the processing

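Of 299 alternatives over 36 results, 263 kept the direction and side of the threshold, or a count within 1.5 times; the denser end against the arm held in all 7 run for each kind of cell. The cause of the changes below was not tested. With the rDNA calls kept in the total, EGFP +ve minus control density was -0.41 in females of 35 to 50 dpf (exact permutation test, p = 0.0280) and females minus males -0.54 in EGFP +ve cells; the total then itself holds the stretch. With the rest of chromosome 4 as the total, males of 35 to 50 dpf had -0.035. Counting reads gave 0.025 for the sexes in control cells, and 1.03 within 100 kb of the stretch (permutation test, p = 0.0434). Averaging methylation over reads gave EGFP +ve minus control 4.05 points over 1 to 25 dpf (p = 0.0269), 6.73 in females (p = 0.0383) and 5.42 in males (p = 0.0596, all permutation tests), 0.453 between the sexes in EGFP +ve cells, and end minus arm 1.39 in EGFP +ve and -0.870 in control cells. Relative to the rest of the genome, EGFP +ve minus control was -0.829 over 1 to 25 dpf, 1.2 in females, 2.87 in males and 4.21 at 70 dpf (exact permutation test, p = 0.0400), and 1 to 4 minus 7 to 28 dpf was -8.82 in EGFP +ve (-5.84 without library A of 1 dpf) and -0.0814 in control cells; the latter was -2.99 within sequencing runs. Leaving out 50 dpf gave 7.26 points in females and leaving out 45 dpf 1.64. Leaving out each replicate in turn, density differences ranged from -0.73 to 0.12 at 28 dpf, -0.30 to 0.010 in females, -0.0051 to 0.19 in males and -0.25 to 0.090 between the sexes in control cells. Methylation differences ranged from -2.76 to 4.27 over 1 to 25 dpf, -3.42 to 1.81 at 28 dpf, 3.89 to 6.09 in females, 4.59 to 8.51 in males and -0.166 to 3.16 between the sexes in control cells. Windows of 1 Mb called for methylation were 0 to 4 between kinds of cell and 0 to 2 between the sexes in EGFP +ve cells.

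Replicate letters were not used as pairs in the main tests. Deviations of libraries with the same letter had r = -0.174 in density and -0.0217 in methylation over 57 pairs. With so few reads per library, these values cannot decide whether libraries with the same letter shared fish. In the replicate block, libraries with the same letter were compared within their age. At 28 dpf this left out EGFP +ve libraries D, with the lowest density (0.462), and E, with the lowest methylation (73.8%), which have no control of their letter. Without them the differences at 28 dpf were 0.44 in density and 0.613 points in methylation. For windows of 1 Mb the block was 1 term per letter shared by all groups, which does not pair libraries within an age. With that term, 10 windows were called for methylation between kinds of cell. The block changed no other call. Depth is the main limit: a library had a median of 28.5 reads in the region, so single windows rest on few reads, and differences under the standard errors given were not detectable. Larger ones could also fail the test, such as 5.19 points ± 2.30 (SE) of methylation in females of 35 to 50 dpf. The flank comparisons, the leave-one-out and read-counted correlations, the arm without its fullest window, and the values without an age or without library A of 1 dpf were chosen after seeing the data.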
